A study of Cardamine sp. SIM-2007 with 7 samples.

Results

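The genes described here are 5 regulators of the floral meristem, of organ growth and of organ polarity, UFO, JAG, YAB3, PHV and CLV3. Each was taken as the probe set whose only gene symbol in the platform annotation was that name, which gave 1 probe set per gene, 5 of the 22746 tested. They were measured in Cardamine kokaiensis, a wild relative of Arabidopsis that forms closed or open flowers after different chilling regimes. Cleistogamous (CL) flowers, which stay closed and self-pollinate, were induced by 28 days of chilling after germination. Chasmogamous (CH) flowers, which open, were induced by 14 days of chilling before germination, and flowers that the labels call intermediate (INT) by 14 days after germination. Each RNA sample pooled 160 primordia of first inflorescences, taken when the first flower primordium could be seen and carrying the first to eighth flower primordia, with 2 biological replicates per flower type. Each flower type came from 1 regime, so flower type and chilling cannot be told apart, and the labels name no genotype or strain. RNA was hybridized to Affymetrix ATH1 arrays, which carry Arabidopsis probes, and 1 more array was hybridized with genomic DNA from leaves of plants that had not been chilled.

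Flower primordia arise on the flanks of the inflorescence meristem. UFO, an F-box protein, acts with the transcription factor LEAFY to switch on the genes of petal and stamen identity. CLV3 is a small secreted peptide made by the stem cells at the meristem tip, where it limits WUSCHEL and with it the number of stem cells. JAG, a zinc-finger protein, promotes growth of lateral organs, sepals and petals among them. PHV, a class III HD-ZIP transcription factor, specifies the upper (adaxial) side of an organ, and YAB3, a YABBY transcription factor, acts on the lower (abaxial) side. These roles are known from Arabidopsis.

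The genomic DNA array shows how well each Arabidopsis probe set bound Cardamine DNA. Its linear intensity was 501.1 for JAG, 498.0 for YAB3, 296.2 for UFO, 212.0 for PHV and 183.1 for CLV3, against a median of 397.7 over all tested probe sets. JAG and YAB3 thus lay above the middle of that array, with 59.3% and 59.0% of probe sets dimmer, and UFO (39.4%), PHV (30.4%) and CLV3 (27.7%) below it. This array had no replicate.

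On the RNA arrays the signals of these probe sets ranked differently. Values were used as log2(intensity + 28.2) and quantile normalized, and the added offset understates fold changes of dim probe sets. The mean over the 6 RNA arrays was brighter than 87.0% of probe sets for YAB3 and 83.2% for PHV. It was brighter than 55.4% for UFO, 47.1% for JAG and 21.0% for CLV3. The probe sets were also split into 10 equal bins by genomic DNA signal, and within its own bin 89.8% of probe sets were dimmer in RNA than PHV, 87.6% than YAB3, 61.5% than UFO, 42.3% than JAG and 26.9% than CLV3. These are ranks of signal, and levels of different genes are not compared, since each probe set binds with its own strength. The dimmest of them, CLV3, had intensities from 34.3 to 142.0, inside the span of 6.57 to 146.6 covered on these arrays by 3 control probe sets for the bacterial gene TrpnX, which match no plant RNA.

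**Figure D1:**
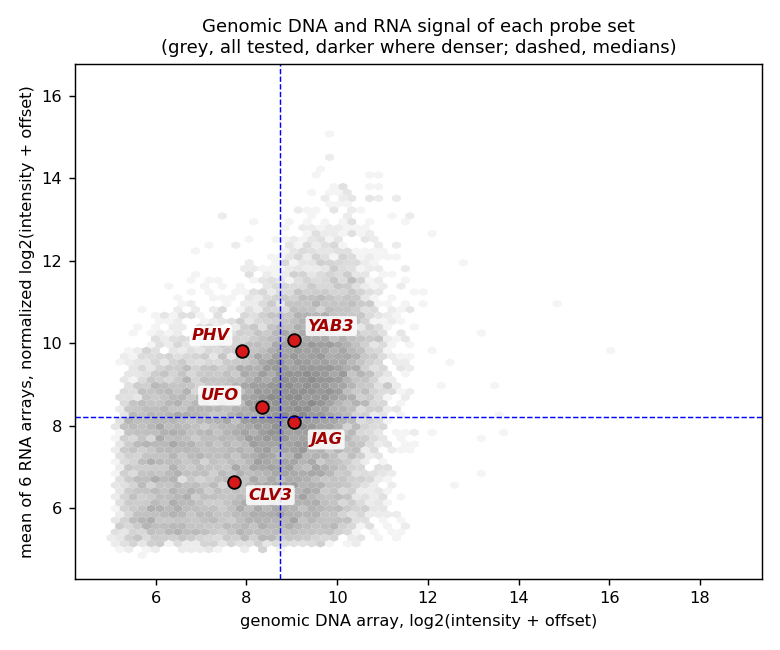
Each probe set is placed by its log2 signal on the genomic DNA array (horizontal axis) and its mean normalized log2 signal over the 6 RNA arrays (vertical axis), with all tested probe sets in grey and both medians dashed. PHV stands left of the genomic DNA median and above the RNA median. YAB3 is a little above the genomic DNA median and high in RNA signal, and CLV3 is below both medians.

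The labelled tissue could be checked on few genes. Of 12 markers listed for floral and inflorescence meristems, the annotation named UFO and CLV3 alone. Their summed intensity ran from 225.4 to 594.4 in CL, 310.9 to 432.7 in INT and 495.7 to 615.7 in CH. Both are among the genes described here, so their sum is no independent check of the labelled tissue. The lowest sum, in CL replicate 1, held 83.4 from UFO and 142 from CLV3. In all other samples UFO was the larger part. Of 16 green-leaf markers the annotation named RCA and PSAN, with sums from 9482 to 13520 in CL, 12570 to 13830 in INT and 8615 to 10700 in CH. PSAN made up most of these sums, and RCA alone was brighter in both INT samples than in all others, at 4508 and 4013 against 2437 and 2205 in CL and 1400 and 2883 in CH. Its part in the results was not tested. For anther markers, AMS and EMS1 of 13, the sums were 223.2 to 472.2, 371.6 to 589.5 and 189.8 to 367.7 in the same order. FDH and FATB of 10 epidermal markers gave 3511 to 3815, 2857 to 3342 and 3303 to 3599. FATB made up most of these sums and was brighter in both CL samples than in both INT samples. FDH went the other way and was dim, at 21.2 and 43.4 in CL, 59.1 and 96.3 in INT, and 25.7 and 63.8 in CH. SWEET11, the only vascular marker of 11 that was named, gave 645.5 to 1098, 670.7 to 969.3 and 513.7 to 879.5. Median intensity over all probe sets was between 260.8 and 301.8 on every RNA array.

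CLV3 was brighter in both CL samples than in every INT and CH sample. Its intensity was 142.0 and 109.1 in CL, 67.1 and 53.6 in INT, and 61.0 and 34.3 in CH, replicate 1 being named first here and below. On the normalized log2 scale the group means were 7.27 ± 0.14 in CL, 6.43 ± 0.20 in INT and 6.24 ± 0.30 in CH (SD, n = 2 each). The INT and CH samples overlapped each other and lay apart from CL. Both CL arrays exceeded all 4 others for 5.77% of all tested probe sets.

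The CL minus CH difference of CLV3 was 1.03 log2 units, a fold of 2.04, with a 95% interval from 0.02 to 2.03. Its unadjusted limma p was 0.0461, where 3.53% of all probe sets had one under 0.05. Adjusted over all probe sets, the limma p of CLV3 was 0.9999. CL minus INT was 0.84 with an interval from -0.17 to 1.85 (limma adjusted p = 0.985), and INT minus CH was 0.19 with an interval from -0.82 to 1.19. None of the 3 differences of CLV3 passed the adjusted threshold. With all arrays kept and a larger offset, 1 part in 2 of the median intensity, CL minus CH was 0.50 and CL minus INT 0.42, and an offset of 1 gave 1.41 and 1.11. Of the 3 TrpnX control probe sets, 1 was also brighter in CL, at 146.6 and 80.6, than in CH, at 18.8 and 15.6, and it gave 95.9 and 145.4 in INT. The other 2 overlapped between CL and CH, at 50.0 and 12.0 against 46.7 and 28.9, and at 10.3 and 13.8 against 12.2 and 8.82. CLV3 exceeded all 3 controls in CL replicate 2 and in both CH samples. Whether such unspecific signal had a part in the CLV3 values was not tested. In pooled primordia, fewer cells expressing a gene and less RNA per cell cannot be told apart, for CLV3 as for the other genes.

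UFO had its lowest mean in CL, and 1 CL sample set that mean. Its intensity was 83.4 and 485.3 in CL, 365.7 and 257.3 in INT, and 434.7 and 581.4 in CH. CL replicate 1 was the lowest of the 6 samples, while CL replicate 2 lay above both INT samples and between the CH samples. The CL samples differed by 5.82-fold in intensity and by 2.29 log2 units, a gap larger than that of 99.0% of probe sets between the same 2 arrays. The INT samples differed by 0.54 and the CH samples by 0.48 log2 units. Group means on the log2 scale were 7.93 ± 1.62 in CL, 8.40 ± 0.39 in INT and 9.02 ± 0.34 in CH (SD, n = 2 each).

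The differences of UFO were therefore loosely measured. CL minus CH was -1.09, with an interval from -2.68 to 0.51 and a limma adjusted p of 0.9999. Without CL replicate 1 it was 0.06, and without CL replicate 2 it was -2.24. CL minus INT was -0.47 with all arrays (interval -2.06 to 1.13), 0.68 without CL replicate 1 and -1.62 without CL replicate 2. INT minus CH, which uses no CL sample, was -0.62 with an interval from -2.22 to 0.98 (limma adjusted p = 0.984). Both INT samples were below both CH samples, as they were for 17.8% of all probe sets. INT minus CH stood at -0.89 without INT replicate 1 and -0.35 without INT replicate 2.

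**Figure D2:**
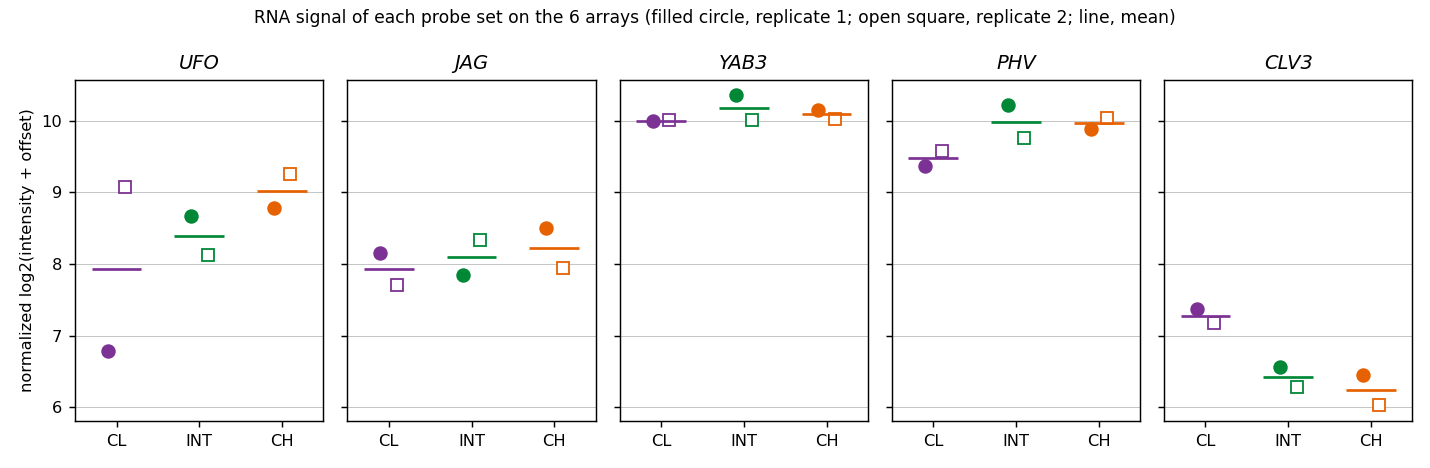
Normalized log2(intensity + offset) of each gene is plotted for CL, INT and CH, with replicate 1 as a filled circle, replicate 2 as an open square and the group mean as a line. The 2 CL samples of UFO lie 2.29 apart, both CL samples of CLV3 lie above the others, both of PHV lie below, and YAB3 stays within 0.37 over all 6 samples.

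JAG did not separate the flower types. Its intensity was 274.1 and 167.3 in CL, 198.1 and 301.2 in INT, and 356.1 and 209.3 in CH. The highest sample was CH replicate 1 and the lowest CL replicate 2, and each flower type overlapped both of the others. Group means on the log2 scale were 7.94 ± 0.31 in CL, 8.10 ± 0.34 in INT and 8.22 ± 0.39 in CH (SD, n = 2 each). CL minus CH was -0.29 with an interval from -1.29 to 0.71 (limma adjusted p = 0.9999), CL minus INT was -0.16 and INT minus CH was -0.13. The replicates of 1 flower type differed by 0.44 to 0.55 log2 units, more than any of these differences. CL minus CH stood at -0.01 without CH replicate 1 and at -0.56 without CH replicate 2. INT minus CH was 0.15 without CH replicate 1 and 0.12 without INT replicate 1, and CL minus INT was 0.08 without INT replicate 2 and 0.06 without CL replicate 2, each with the sign turned.

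PHV, the adaxial gene, was dimmer in both CL samples than in every other sample. Its intensity was 652.1 and 720.5 in CL, 1169 and 844.4 in INT, and 922.3 and 1045 in CH. The brightest CL sample stood below the dimmest of the other 4, as for 5.66% of all probe sets, and the INT and CH samples overlapped. Log2 means were 9.48 ± 0.14 in CL, 9.99 ± 0.32 in INT and 9.97 ± 0.11 in CH (SD, n = 2 each). CL minus CH was -0.49, a fold of 1.40, with an interval from -1.03 to 0.06 and an unadjusted p of 0.0717 (limma adjusted p = 0.9999). CL minus INT was -0.51, a fold of 1.43, with an interval from -1.06 to 0.03 (limma adjusted p = 0.985). As each array was left out, CL minus CH stood between -0.58 without CL replicate 2 and -0.39 without CL replicate 1. Its sign could not turn, since the CL and CH samples did not overlap. CL minus INT ranged from -0.29 (INT replicate 1 left out) to -0.74 (INT replicate 2 left out), with its sign fixed in the same way. INT minus CH was 0.03, with an interval from -0.52 to 0.57, and turned to -0.20 without INT replicate 1 and -0.05 without CH replicate 1.

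YAB3, the abaxial gene, varied least of the 5. Its intensity was 973.4 and 1001 in CL, 1299 and 1002 in INT, and 1084 and 1035 in CH. Both CL samples were the lowest, as for 5.66% of all probe sets. However, CL replicate 2 and INT replicate 2 were almost equal, at 10.004 and 10.011 on the log2 scale. The whole range over 6 samples was 0.37 log2 units, and 5.2% of probe sets had a smaller one. Log2 means were 9.997 ± 0.010 in CL, 10.18 ± 0.24 in INT and 10.09 ± 0.08 in CH (SD, n = 2 each). CL minus CH was -0.09 with an interval from -0.57 to 0.39, so that a CL level more than 1.48-fold lower or 1.31-fold higher than CH lay outside it. CL minus INT was -0.19 with an interval from -0.66 to 0.29, and INT minus CH was 0.10 with an interval from -0.38 to 0.57. Without INT replicate 1, the brightest sample, INT minus CH was -0.08 and CL minus INT was -0.01.

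**Figure D3:**
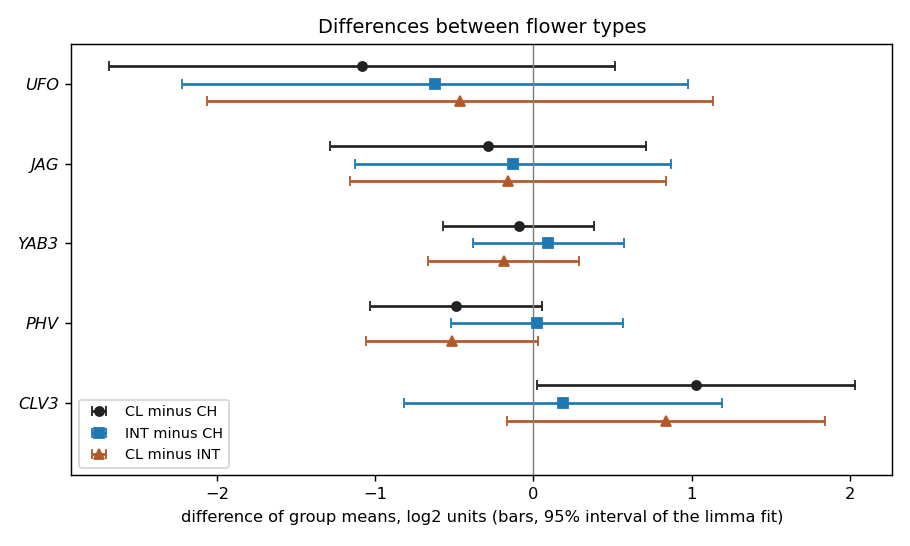
Points give the difference of group means in log2 units for the 3 contrasts and bars the 95% interval of the limma fit. The CL minus CH interval of CLV3, from 0.02 to 2.03, is the only one of the 15 that leaves out 0, those of UFO are the widest, and those of YAB3 the narrowest.

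Taken over the 5 genes, 4 had a lower mean in CL than in CH and 1, CLV3, a higher one, with a median difference of -0.29, while 50.9% of all probe sets were lower and their median was -0.01. limma called 0 of the 5 at an adjusted p under 0.05, and 0% of all 22746 probe sets. At an unadjusted p under 0.05 it was 1 of the 5, CLV3, and 803 of all. Both CL arrays lay above both CH arrays for 1 gene, CLV3 (13.9% of all probe sets), and below for 2, PHV and YAB3 (14.8%). In CL against INT the same counts were 1 above (17% of all) and 2 below (16%), again CLV3 above and PHV and YAB3 below, but both contrasts share the CL samples. Against INT and CH together, both CL arrays lay below all 4 others for PHV and YAB3, as for 5.66% of all probe sets.

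In INT against CH, 3 genes had a higher mean and 2 a lower one, with a median difference of 0.03. Both INT arrays lay below both CH arrays for 1 gene, UFO (17.8% of all), and above for 0 (16.4% of all). limma called 0 of the 5, and 0% of all probe sets, at the adjusted threshold, and at an unadjusted p under 0.05 it was 0 of the 5 and 4.76% of all. In CL against INT it called 0 of the 5 and 0% of all, with 0 of the 5 and 4.4% of all at an unadjusted p under 0.05. The joint F-test over the 3 flower types also called 0 of the 5 and 0% of all, with 4.2% of all and 0 of the 5 at an unadjusted p under 0.05, the lowest being 0.0975 for CLV3 and 0.105 for PHV. Means rose in the order CL, INT, CH for UFO and JAG, an order held by 15.4% of all probe sets. The order was CL, CH, INT for YAB3 and PHV (17.4%) and CH, INT, CL for CLV3 (14.8%). Neighbours in these orders did not overlap for CL and INT of CLV3, for CL and CH of PHV and YAB3, and for INT and CH of UFO, and the other neighbours overlapped.

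**Figure D4:**
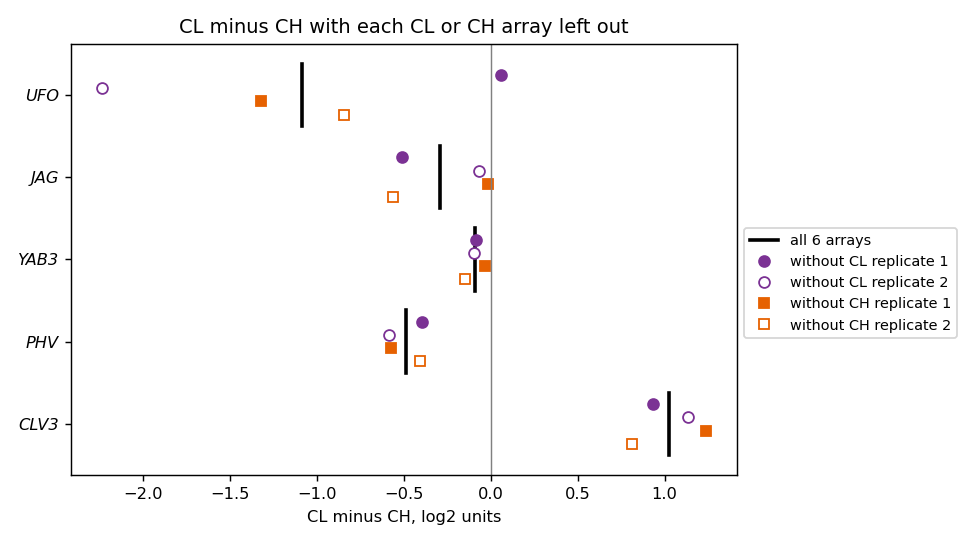
The CL minus CH difference in log2 units is given for each gene with all 6 arrays (black line) and with each CL or CH array left out (coloured points). UFO moves from -2.24 to 0.06 with the choice of CL sample, whereas PHV stays between -0.58 and -0.39 and CLV3 between 0.81 and 1.24. For PHV and CLV3 the CL and CH samples do not overlap, so leaving out 1 array cannot turn the sign.

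The replicates gave opposite pictures for UFO and JAG. Replicate 1 minus replicate 2 was -2.29 in CL, 0.54 in INT and -0.48 in CH for UFO, and 0.44, -0.49 and 0.55 for JAG, so that in each flower type the sample with more UFO signal had less JAG signal. PHV followed the signs of UFO, at -0.20, 0.45 and -0.15. CLV3 was brighter in replicate 1 of every flower type, by 0.20, 0.28 and 0.43. These gaps are between 2 samples each and are given as a description.

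Of 109 further genes listed for floral patterning in Arabidopsis, the annotation named 14, and 0 of the 14 passed the adjusted limma test in any of the 3 contrasts. In each contrast 0% of all 22746 probe sets passed it, so the count is not particular to these genes. In CL against CH, 6 had higher and 8 lower means, with a median of -0.08, where 50.9% of all probe sets were lower. An unadjusted p under 0.05 was found for 1 of the 14, and for 3.53% of all. In INT against CH, 6 were higher and 8 lower, with a median of -0.09 (50.8% of all were lower), and again 1 had an unadjusted p under 0.05, against 4.76% of all. In CL against INT, 10 were higher and 4 lower, with a median of 0.19 (50.2% of all were higher), and 0 stood at that level, against 4.4% of all. None of the 13 floral organ identity genes listed was named by the annotation. Listed genes without a match can still be on the array, under probe sets with no symbol or with several, and a gene is called measured here only where it was named.

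Of the polarity genes, INO, a YABBY gene of the outer ovule coat, had intensities of 883.9 and 457.8 in CL, 524.6 and 523.5 in INT, and 451.1 and 255.8 in CH. Its CL minus CH difference was 0.91 with an unadjusted p of 0.0388 (limma adjusted p = 0.9999), and CL replicate 2 was close to CH replicate 1. YAB5, another YABBY gene, had 462.1 and 447.7 in CL, 437.4 and 355.0 in INT, and 610.9 and 512.9 in CH. Its CL minus CH difference was -0.26. Both its CL and its INT samples lay below both CH samples, and for INT this held for 17.8% of all probe sets. Both CL samples were thus below both CH samples for YAB3 and YAB5, as for 14.8% of all probe sets, and above them for INO, as for 13.9%. None of these 3 YABBY genes passed the adjusted test, and neither did any other probe set. PHV was the only adaxial gene of 11 listed that the annotation named.

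Beside CLV3, 4 genes of stem cell control were measured. CL minus CH was 0.51 for ULT1, a SAND-domain protein that limits the meristem, 0.30 for ARR15, a cytokinin response regulator, 0.30 for CLE40, a peptide related to CLV3, and -0.09 for POL, a phosphatase that acts in the CLV3 pathway. All 4 overlapped between CL and CH, where both CL arrays lay above for 13.9% of all probe sets and below for 14.8%. ARR15 was brighter in both CL samples, at 381.2 and 325.1, than in both INT samples, at 244.3 and 231.0. Its CL minus INT difference was 0.52 (limma adjusted p = 0.985), and 17% of all probe sets lay above in this way. CLE40 was dim, from 19.2 to 104.6 in intensity. Of the meristem identity genes beside UFO, AGL24, a MADS-box gene, differed by -0.09 and PUCHI, an AP2/ERF gene, by 0.18, both overlapping.

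For organ growth, PTL, a trihelix factor of petal and sepal spacing, had intensities of 62.7 and 76.6 in CL, 44.0 and 10.4 in INT, and 83.6 and 76.6 in CH. INT was below both others. Both INT arrays lay below both CH arrays for 17.8% of all probe sets, and below both CL arrays for 17%. INT minus CH was -1.07 with an unadjusted p of 0.0458 (limma adjusted p = 0.983), although all 6 values lay in the range of the TrpnX control probe sets. RBE, a zinc-finger gene of petal development, differed by -0.23 between CL and CH and by -0.58 between INT and CH. TCP15 differed by 0.20 between CL and CH and by -0.175 between INT and CH. Both INT samples lay below both CH samples for RBE and TCP15 as for PTL, 3 of the 6 measured organ growth genes. SPT, a bHLH gene of carpel margins, differed by -0.10 between CL and CH. NUB, the closest relative of JAG, was singled out for that relation after its values were seen, and differed by -0.08. LAS, the only boundary gene of 11 listed that the annotation named, differed by -0.12.

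**Figure D5:**
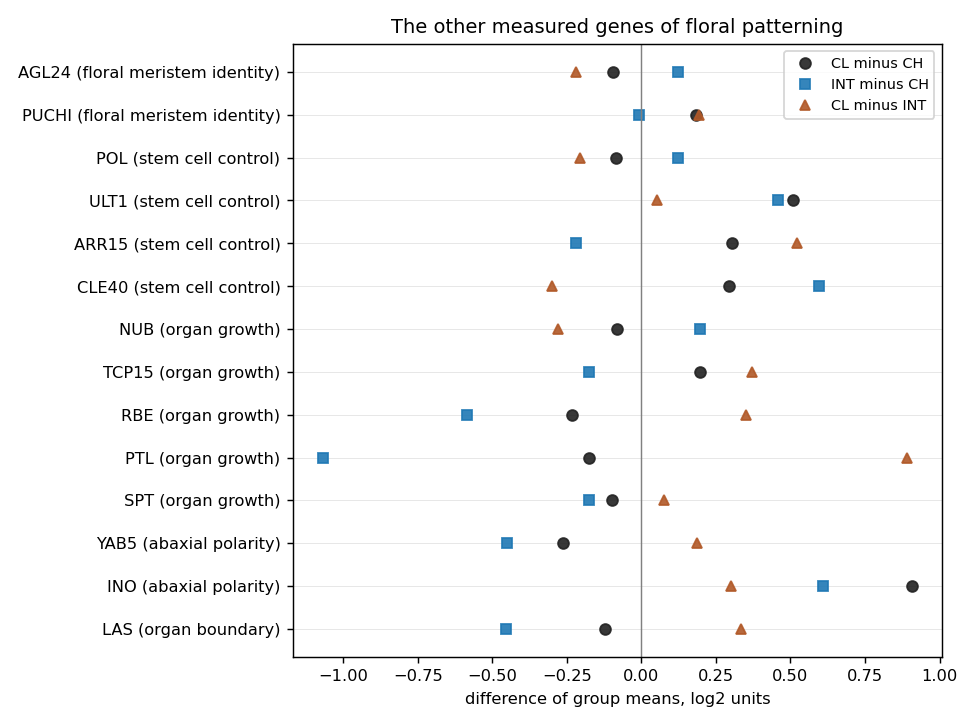
Differences of group means in log2 units are given for the 14 other measured genes of floral patterning in the 3 contrasts, grouped by role. Values run from -1.07 for PTL in INT minus CH to 0.91 for INO in CL minus CH.

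Likeness of pattern was sought among about 680 named probe sets with a mean above the median and an SD of at least 0.5 over the 6 RNA arrays. The measure was the Pearson correlation over those 6 arrays, which with so few samples is high for some genes in any large set and is given as a description. For CLV3 the most alike were Cpn60beta2, a chloroplast chaperonin subunit (r = 0.968), AT5G48760 (r = 0.874) and the plastid gene rpoC1 (r = 0.872). For UFO, 24 of 680 candidates reached r = 0.9 or more, led by AT3G03180 (r = 0.985), AT5G38890 (r = 0.974) and AT2G30780 (r = 0.970), and all 3 were lowest in CL replicate 1. For JAG there were 4, led by AT2G32310 (r = 0.988), AT1G52930 (r = 0.962) and AT1G18830 (r = 0.946), all lowest in CL replicate 2. For PHV there was 1, AT5G58575 (r = 0.944), followed by AT5G54200 (r = 0.871) and AT1G01240 (r = 0.868). None reached 0.9 for YAB3, whose closest were AT5G02180 (r = 0.837), AT5G05510 (r = 0.794) and AT3G12620 (r = 0.730).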

How the data were processed

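Values are the intensities per probe set that the authors deposited for 7 ATH1 arrays, linear and positive, with a mean of 500 on each array once the lowest and highest 2% were left out. Per the labels, RNA data were calibrated with the genomic DNA array after Hammond and colleagues. Neither the software that summarized the probes nor the DNA cut-off is stated in the labels. Arrays have no read depth, and their number limits the precision.

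From the 22810 probe sets, 64 controls were left out. The offset of 28.2 is 1 part in 10 of the median RNA intensity. Log2 array medians spanned 0.19, above the 0.1 set as limit, so arrays were quantile normalized. limma 3.58.1 in R 4.3.3 fitted flower type on the 6 RNA arrays, with eBayes and a trend, two-sided, Benjamini-Hochberg adjusted p under 0.05 over all 22746. On simulated data the fit was checked for recovering the mean size of planted differences. How often such differences are called is not given here. The annotation gave 13513 probe sets 1 gene, 503 several and 8794 none. Figures used matplotlib 3.10.9 in Python 3.11.15.

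The members and lists were chosen with earlier results of these data known. All 5 members were named, at most 4 further genes per list by lowest p in CL against CH (NUB was added after its values were seen), and 3 genes of like pattern per member. List genes were matched by symbol alone, 1 probe set per gene, the brightest. Alternatives were 2 other normalizations, 2 other offsets, filters on RNA and genomic DNA signal, other variance models, a replicate block, only the 4 arrays compared, and leaving out each array. The counts at an unadjusted p under 0.05 were added after the data were seen. No sequence was read.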

Additional observations from a re-analysis of the deposited data

How the results depend on the processing

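With 2 arrays per group, the 15 differences of the 5 genes were recomputed under the alternatives, which gave 228 values in all. Of these, 218 kept their sign and 10 turned sign, each with an array left out. The filters, the other variance models and the replicate block leave a difference unchanged by construction. Leaving out an array outside a contrast moves its difference only through the normalization. The 218 are therefore no count of independent checks. With all arrays of a contrast kept, none passed the adjusted threshold. Leaving out single arrays, UFO ranged from -2.24 to 0.057 in CL minus CH and from -1.62 to 0.68 in CL minus INT, where only the fit without CL replicate 1 turned the sign. JAG ranged from -0.40 to 0.15 in INT minus CH and from -0.41 to 0.079 in CL minus INT. In INT minus CH, YAB3 ranged from -0.077 to 0.27, PHV from -0.20 to 0.25 and CLV3 from -0.026 to 0.40, the last turning without CH replicate 2. Under the settings that kept all arrays of a contrast no sign turned, and UFO in CL minus CH lay between -1.25 with an offset of 1 and -0.73 with the largest offset.

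limma called 0 probe sets under every setting and in every contrast. Counts at an unadjusted p under 0.05 moved from 803 to 497 (CL minus CH) and from 1082 to 713 (INT minus CH) once the dimmest 25% were left out. With genomic DNA signal above the median they were 397, 528 and, from 1001, 484 (CL minus INT). Both filters left fewer probe sets to test. Under the first filter the counts fell by more than the 25% of probe sets left out, and the cause was not tested. Without CL replicate 2 the count for CL minus INT was 1809; the cause was not tested. CLV3 fell to the first filter, and UFO, PHV and CLV3 to the second, which gave them no value. Of 15 group levels, 4 moved beyond their SD with an offset of 1 and 11 with the largest.

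The labels number the replicates alike but state no pairing. Replicate differences correlated across probe sets at 0.246 between CL and CH, -0.05 between CL and INT and -0.05 between INT and CH. No RNA array correlated best with the other array of its own flower type. The replicate 1 arrays of CL and CH were closest to each other (r = 0.931), as were their replicate 2 arrays (r = 0.939). Both INT arrays were closest to CL replicate 2 (r = 0.936 for replicate 1 and 0.928 for replicate 2). The cause was not tested. With the replicate block the differences were the same by construction (UFO -1.09 and CLV3 1.03 in CL minus CH), 0 probe sets were called, and 893, 1248 and 1170 had an unadjusted p under 0.05.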
